A study of Mus musculus with 45 samples.

Results

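The genes described here are markers of blood-derived immune cells, read in the uterus of Plag1 knockout (KO) and wild type (WT) mice. A list of 39 symbols was looked up in a table of 24422 genes and 38 of them were found. By lineage these were 6 pan-leukocyte genes, 12 macrophage and monocyte genes, 3 neutrophil genes, 3 eosinophil genes, 5 T cell genes, 5 natural killer (NK) cell genes and 4 B cell and plasma cell genes. Trbc2, a constant region of the T cell receptor beta chain, had no entry under its symbol or a synonym. The samples were 3 preparations from each of 14 CD-1 mice, 7 WT and 7 KO: a whole piece of horn (uterus), the scraped mucosa (endometrium), and the muscular wall left behind (myometrium). All mice were sexually mature young females of 1 colony bred from heterozygous parents, and all had been given 5 IU PMSG and, 2 days later, 5 IU hCG, which induce ovulation, and were killed on the day after hCG. In the paper, superovulated females were mated with WT males, save for those giving unfertilized oocytes. Whether the females used here had been mated is not stated in its methods. The WT mice of the colony served as controls. In the KO allele, lacZ stands in place of the Plag1 coding sequence. RNA was read with STRT, a 5′ end tag method in which each molecule carries a unique molecular identifier, so values are counts of tagged 5′ ends, given as CPM, the count scaled to the gene total of the sample.

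The uterus holds a resident population of leukocytes whose make-up is set by ovarian hormones. Macrophages express complement C1q, the receptor for colony stimulating factor 1 and scavenger and lectin receptors. NK cells and cytotoxic T cells carry granzymes in granules. Around oestrus, neutrophils, which are rich in the calcium-binding pair S100a8 and S100a9, enter the mouse endometrium and lumen, and eosinophils gather in the stroma and muscle. Plasma cells in mucosa make the J chain, which joins immunoglobulin A and M into polymers.

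Each sample held 256298 to 2431043 gene counts, so 3 counts, taken as the floor, stood for 1.23 to 11.7 CPM. Plag1 itself had 2 counts in all over the 21 WT samples and 5 over the 21 KO samples, never more than 1 in a sample. Its tags come from the 5′ end, which may lie outside the replaced part, so they could not check the genotype labels. The layers carried their own markers with some mixing. All 4 epithelial genes measured (Krt8, Krt18, Epcam, Cdh1) were called higher in endometrium than in myometrium and all 4 smooth muscle genes (Acta2, Des, Myh11, Cnn1) lower. The summed epithelial level was 708 to 2284 CPM in endometrium and 52.3 to 576 CPM in myometrium, and the summed smooth muscle level was 187 to 8082 CPM in endometrium and 8099 to 25042 CPM in myometrium. A mouse keeps its number in all 3 tissues, so 14 animals stand behind every comparison. Mice 1 to 8 (5 WT, 3 KO) lay in plate rows A-C and mice 9 to 14 (2 WT, 4 KO) in rows D-F. Apart from repeat libraries, uterus samples lay in rows A and D, myometrium in B and E and endometrium in C and F. Row and tissue therefore cannot be told apart in a comparison of tissues, also within rows A-C or D-F alone. In bulk tissue, fewer cells of a type and less RNA per cell cannot be told apart.

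Leukocyte transcripts were found in every sample, but the lineages differed in how deeply they were sampled. Of the 38 genes, 17 were counted in all 42 samples, 21 reached 3 counts in most samples, and 8 reached 3 counts in no more than 5 samples. The 17 were the 6 pan-leukocyte genes, 8 of the macrophage genes, Nkg7, Cd3g and Jchain. The thin ones included Cd8a, the co-receptor of cytotoxic T cells, with 4 counts in all uterus samples, 1 in endometrium and 3 in myometrium. Ms4a1, which encodes CD20 of mature B cells, had 1 count in each tissue. Siglecf, a lectin of eosinophils, had 5 counts in uterus, 0 of 10732921 in endometrium and 2 in myometrium. For these genes a difference was not detectable at this depth. The plot of all members by sample shows the well-counted genes as unbroken bands and the neutrophil, eosinophil and most T cell genes as scattered cells.

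**Figure D1:**
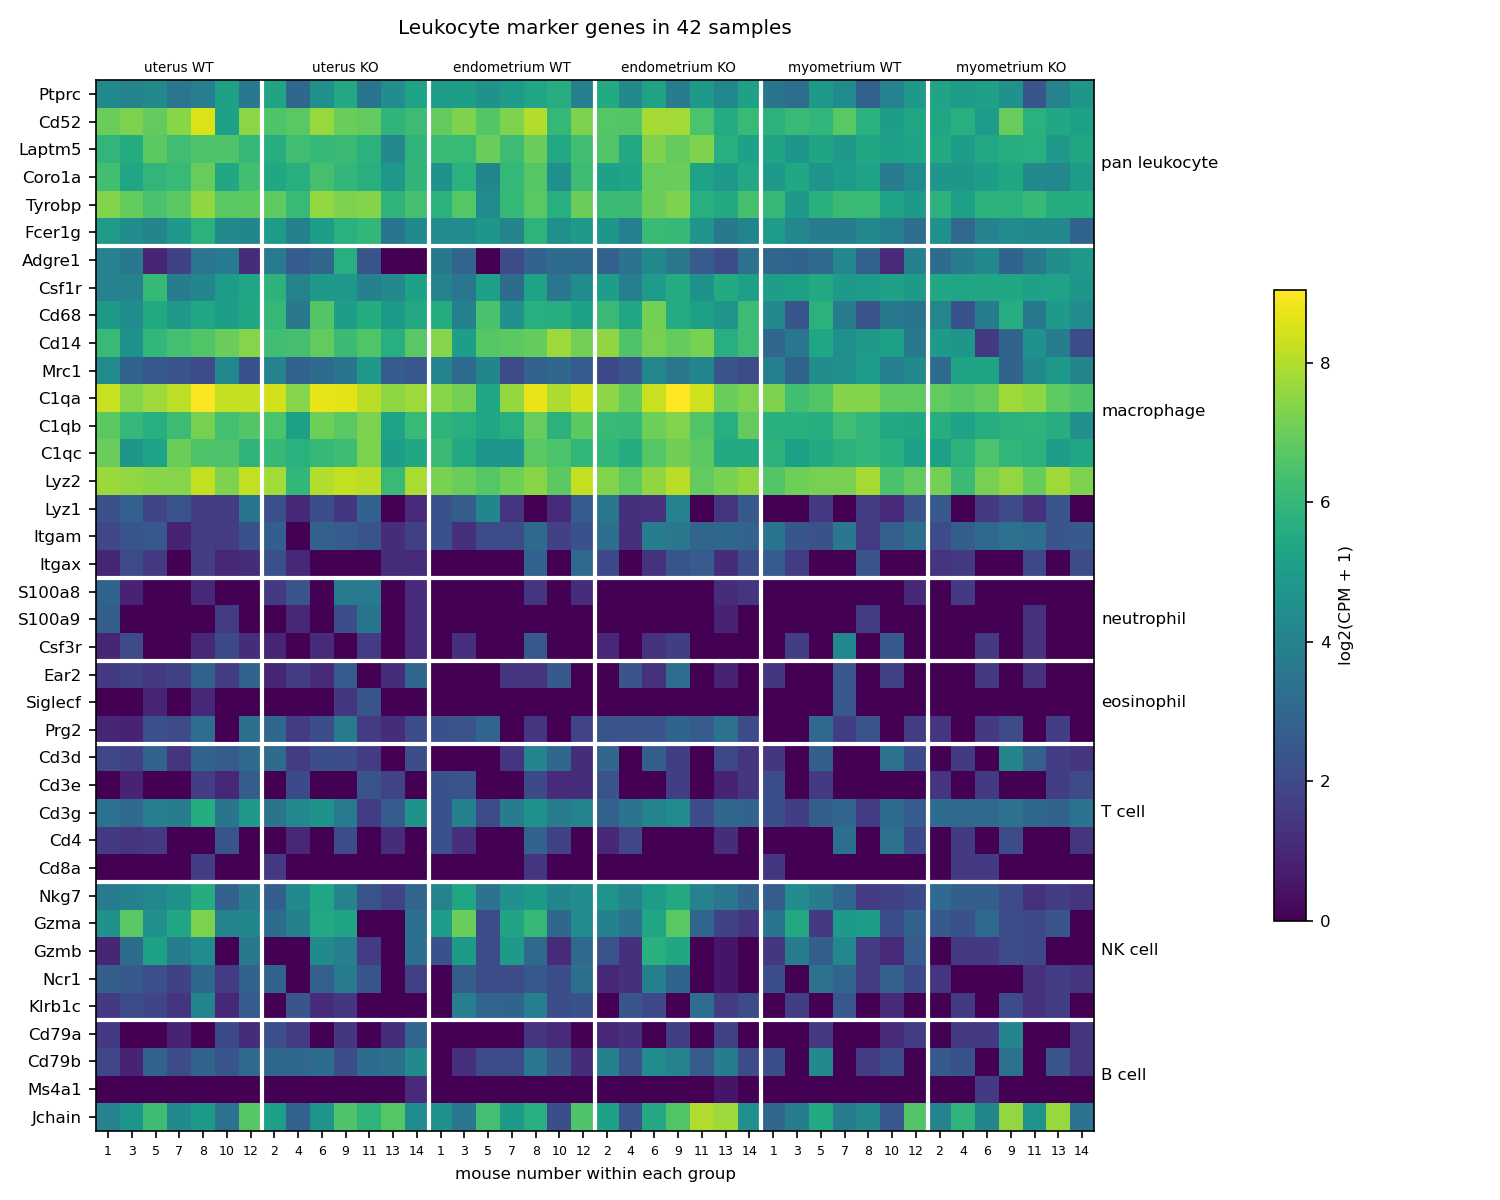
Level of each of the 38 members (rows, by lineage) in each of the 42 mouse and tissue samples (columns, by tissue and genotype), as log2(CPM + 1) on the colour scale. C1qa, Lyz2, Cd52 and Tyrobp form continuous bands, and S100a8, S100a9, Siglecf, Cd8a and Ms4a1 are at 0 in most samples.

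The first comparison asked in which layer of the wall the leukocyte genes lay. Where members differed between the layers, most were higher in endometrium, and the exceptions were 2 macrophage genes. Of 34 members tested, 13 were higher in endometrium, 2 were lower and 19 were not called, against 28.1% of the 14314 genes tested that were called in either direction, 14.9% higher and 13.3% lower. The median log2 difference of the members was 0.66, and that of all genes tested was 0.03. The epithelial and smooth muscle levels given above moved with this contrast, and their part in the result was not tested. All 15 calls kept their direction in fits to plate rows A-C alone, to rows D-F alone, to WT mice alone and to KO mice alone, where 8, 6, 7 and 11 of them passed the threshold.

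Among the pan-leukocyte genes, 5 of 6 were higher in endometrium. Cd52, a small surface glycoprotein of lymphocytes and monocytes, stood at 46.1, 109 and 255 CPM (lowest, median and highest of 14) in endometrium and at 29.9, 52.5 and 123 CPM in myometrium. Within a mouse the endometrium was the higher of the pair in 14 of 14, although the ranges over mice overlapped. The difference was 1.16 ± 0.23 on the log2 scale (SE, adjusted p = 0.000160). Cd52 shares exon sequence on the opposite strand with Aim1l, and the strand setting of the counting was not given in the sources used here. Laptm5, a lysosomal membrane protein of blood cells, ran from 35.0 through 74.4 to 157 CPM in endometrium and from 25.9 through 37.8 to 49.2 CPM in myometrium. It was higher in 13 of 14 mice, by 1.08 ± 0.19 (adjusted p = 3.55e-05). Coro1a, an actin-binding protein of leukocytes, was higher by 0.96 ± 0.26 (adjusted p = 0.00512). Fcer1g and Tyrobp, signalling adaptors shared by myeloid and NK cell receptors, were higher by 0.80 ± 0.28 (adjusted p = 0.0246) and 0.60 ± 0.22 (adjusted p = 0.0381). Fcer1g lost its call without mouse 6 (adjusted p = 0.0773) and Tyrobp without any 1 of mice 3, 4, 6, 9, 12 and 14 (highest adjusted p = 0.105). Ptprc, which encodes CD45, the phosphatase used to define leukocytes, was not called (log2 difference 0.47). After scaling to the added ERCC control RNAs it was called higher (0.87, adjusted p = 0.0212), in a fit where the median of all genes was 0.39.

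The macrophage genes split by layer. Of 12 tested, 4 were higher in endometrium, 2 lower and 6 not called. Cd14, the co-receptor for bacterial lipopolysaccharide, had the largest difference of the 34 members tested. In endometrium it stood at 32.2, 118 and 208 CPM and in myometrium at 1.87, 17.5 and 39.4 CPM. Endometrium was higher in 14 of 14 mice, and across mice only the lowest endometrium values reached the top of the myometrium range. The difference was 2.61 ± 0.29 (adjusted p = 6.28e-09). Cd68, a lysosomal glycoprotein of macrophages, was at 14.7, 46.3 and 141 CPM in endometrium and 3.82, 13.2 and 54.4 CPM in myometrium, higher by 1.41 ± 0.33 (adjusted p = 0.00113) and in 12 of 14 mice. C1qa and C1qb, chains of the complement initiator C1q, were higher by 0.76 ± 0.23 (adjusted p = 0.00990) and 0.66 ± 0.20 (adjusted p = 0.0111). C1qc, the remaining chain, lies between them on chromosome 4 (mm9: C1qb 136436044 to 136442102, C1qc 136445719 to 136448980, C1qa 136451832 to 136454718) and was not called in this contrast.

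Mrc1 and Csf1r went the other way. Mrc1, the mannose receptor of tissue-resident macrophages, stood at 2.96, 6.64 and 17.1 CPM in endometrium and at 6.45, 18.8 and 38.2 CPM in myometrium. The ranges overlapped, and myometrium was the higher of the pair in 11 of 14 mice. The log2 difference was -1.40 ± 0.30 (adjusted p = 0.000414). Csf1r, the receptor on which macrophage survival depends, was at 8.12, 26.8 and 45.7 CPM in endometrium and at 26.3, 34.8 and 43.2 CPM in myometrium, with a wider spread between mice in the endometrium. Its difference was -0.58 ± 0.21 (adjusted p = 0.0318), and myometrium was higher in 10 of 14 mice. This call was lost without any 1 of mice 1, 2, 3, 4, 7, 10, 11 and 12 (highest adjusted p = 0.100), and after scaling to the added ERCC control RNAs it was -0.21 (adjusted p = 0.584). Csf1r also shares exon sequence on the opposite strand with Hmgxb3, and the strand setting of the counting was not given in the sources used here. Adgre1, which encodes the macrophage antigen F4/80, had a difference of -0.70 ± 0.33 that did not pass (adjusted p = 0.112).

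NK cell genes had the highest median difference of the 7 lineages, at 1.73 on the log2 scale over 5 genes, of which 4 were called higher in endometrium. Nkg7, a granule protein of NK and cytotoxic T cells, stood at 6.36, 18.6 and 43.5 CPM in endometrium and at 1.45, 4.20 and 19.4 CPM in myometrium. Endometrium was higher in 13 of 14 mice, and the difference was 1.88 ± 0.33 (adjusted p = 3.04e-05). Gzma, which encodes granzyme A, a serine protease of the same granules, spread far more between mice, from 1.59 through 17.0 to 125 CPM in endometrium and from 0 through 4.49 to 43.1 CPM in myometrium. The ranges overlapped almost fully, yet within a mouse the endometrium was higher in 13 of 14. Its difference was 1.68 ± 0.51 (adjusted p = 0.0102). Gzmb, the granzyme that cleaves caspases, was higher by 1.73 ± 0.64 (adjusted p = 0.0385), a call lost without mouse 6 or without mouse 9 (highest adjusted p = 0.131). Klrb1c, the NK1.1 receptor gene, was higher by 1.98 ± 0.57 (adjusted p = 0.00710) on 48 counts in endometrium and 8 in myometrium. Its first 100 bases match the paralogue Klrb1a at 92.7% of 96 aligned bases, so reads of the pair may have been shared. Ncr1, the activating receptor NKp46, was not called (0.47).

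As 4 of the 5 NK genes were called in the same direction, the 250 bases before the transcript start of each are shown, from RefSeq on the GRCm38.p6 build. Capitals mark the letters TGTGGT, or ACCACA where they lie on the other strand, which are the core read by RUNX factors. This motif is shown out of 5 searched, and it was picked after the windows had been read. Gzmb and Ncr1 hold the motif at more than 1 place, and Ncr1 has a second, overlapping window that is not printed.
Nkg7, chr7:43436888-43437137, plus strand: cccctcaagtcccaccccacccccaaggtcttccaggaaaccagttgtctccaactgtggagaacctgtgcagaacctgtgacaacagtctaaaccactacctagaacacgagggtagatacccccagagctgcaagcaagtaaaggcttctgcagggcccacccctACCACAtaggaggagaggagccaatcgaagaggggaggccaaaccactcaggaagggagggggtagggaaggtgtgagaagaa
Gzma, chr13:113100982-113101231, minus strand: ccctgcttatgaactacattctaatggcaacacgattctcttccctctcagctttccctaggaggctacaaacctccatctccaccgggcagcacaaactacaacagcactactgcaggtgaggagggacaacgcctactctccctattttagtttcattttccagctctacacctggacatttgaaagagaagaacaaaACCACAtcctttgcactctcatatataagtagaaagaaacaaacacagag
Gzmb, chr14:56262335-56262584, minus strand: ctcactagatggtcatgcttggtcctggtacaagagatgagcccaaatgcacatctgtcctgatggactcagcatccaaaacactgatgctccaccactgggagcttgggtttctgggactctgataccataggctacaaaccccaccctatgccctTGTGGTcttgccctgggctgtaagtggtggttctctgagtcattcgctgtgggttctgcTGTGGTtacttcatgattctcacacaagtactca
Ncr1, chr7:4337465-4337714, plus strand: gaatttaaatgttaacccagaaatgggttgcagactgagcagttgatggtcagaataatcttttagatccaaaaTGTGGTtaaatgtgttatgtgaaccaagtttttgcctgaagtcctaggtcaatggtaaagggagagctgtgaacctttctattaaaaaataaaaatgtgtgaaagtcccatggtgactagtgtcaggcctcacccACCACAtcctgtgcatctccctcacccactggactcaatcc
Klrb1c, chr6:128788642-128788891, minus strand: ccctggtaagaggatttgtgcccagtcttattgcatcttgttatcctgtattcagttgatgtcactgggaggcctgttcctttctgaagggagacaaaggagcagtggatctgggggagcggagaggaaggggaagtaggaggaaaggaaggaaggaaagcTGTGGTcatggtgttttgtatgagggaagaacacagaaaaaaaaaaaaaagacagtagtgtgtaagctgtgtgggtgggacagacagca

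Counted from the transcript start, the motif begins at -83 in Nkg7, at -50 in Gzma, at -93 and -34 in Gzmb, at -176 and -41 in Ncr1 and at -89 in Klrb1c. Of 32851 such windows in RefSeq, 14% held TGTGGT on either strand. Of the 28 members with a window, 8 held it: the 5 NK genes, C1qc, Lyz2 and S100a9. The other letters searched, on both strands, were AGGAAG, the core read by ETS factors, found in 29.5% of all windows and in 19 members, and its longer forms GAGGAAGT, in 2.44% of windows and 2 members, and AGGAAGTG, in 3.14% of windows and 6 members. TATAAA stood in 12.4% of windows and in 3 members. These are matches of letters and not sites shown to be bound.

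No T cell, B cell, neutrophil or eosinophil member was called between endometrium and myometrium by edgeR's quasi-likelihood test. Cd3g, the best counted of the CD3 chains of the T cell receptor complex, stood at 3.33, 11.4 and 23.2 CPM in endometrium and at 2.00, 6.94 and 9.87 CPM in myometrium. Its difference of 0.73 ± 0.31 missed the threshold (adjusted p = 0.0738). Jchain ranged widely between mice, from 3.54 through 39.1 to 248 CPM in endometrium and from 4.66 through 17.4 to 196 CPM in myometrium, higher in endometrium in 9 of 14 mice. Cd79b, a signalling chain of the B cell receptor, was higher in endometrium in 12 of 14 mice, but its log2 difference of 0.89 did not pass. Prg2, the eosinophil major basic protein, had 50 counts in endometrium and 13 in myometrium.

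**Figure D2:**
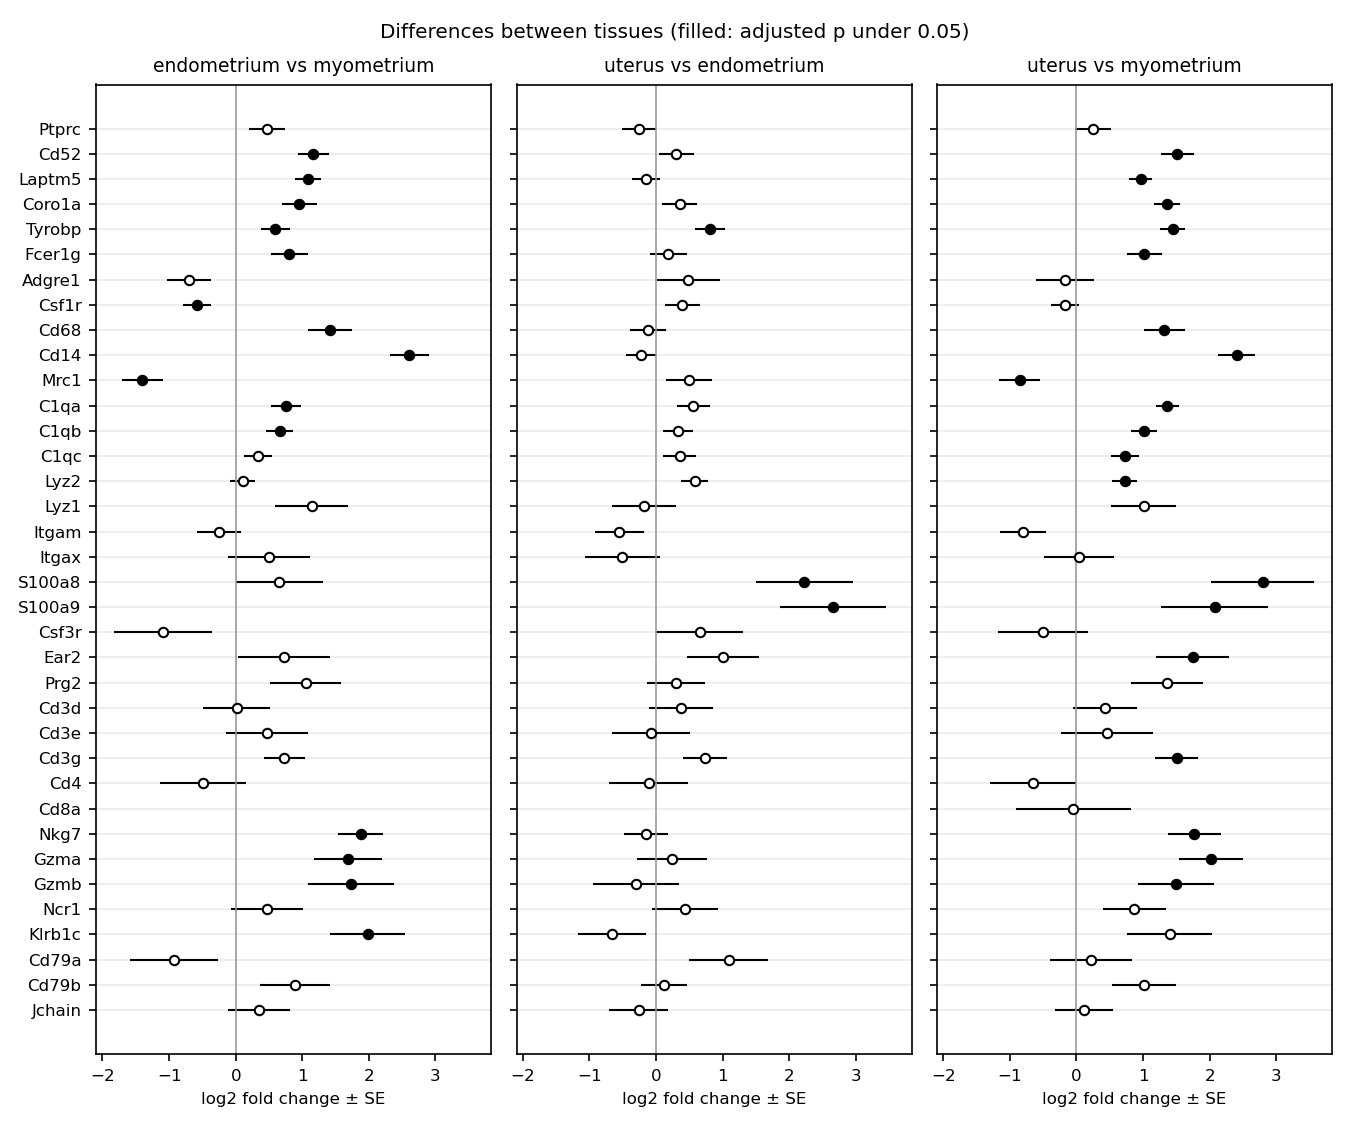
Log2 differences of the members tested, with bars of ± 1 SE, by lineage, for endometrium over myometrium, uterus over endometrium and uterus over myometrium, filled where the adjusted p was below 0.05. Cd14 lies farthest right in endometrium over myometrium at 2.61, Mrc1 farthest left at -1.40, and in uterus over endometrium only S100a8, S100a9 and Tyrobp are filled.

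The whole horn was then set against each of its layers. A horn piece contains both layers, yet several leukocyte genes had a mean above both. The mean CPM of the horn was above that of either layer for 15 of the 36 members in the joint table (41.7%) and for 15.0% of 14822 genes, and it was below both for 4 members (11.1%) and for 40.6% of genes. The genes above both included Tyrobp, C1qa, C1qb, C1qc, Lyz2, Ear2, S100a8 and S100a9. S100a9 reached 1 CPM in 6 uterus, 0 endometrium and 2 myometrium samples. It thus entered the 36 only through uterus, where it is high, and carries no weight among the 15. This compares means alone, with no margin and no test, and some of the steps were small. C1qc had a mean of 74.4 CPM in uterus and 68.5 CPM in endometrium, higher in 7 mice and lower in 7. For C1qb the means were 88.0 and 83.3 CPM, higher in 9 mice and lower in 5. Of the genes named, Tyrobp, S100a8 and S100a9 were called over endometrium, with the limits given next.

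Between uterus and endometrium 3 of 35 members were called, all higher in uterus, where 8.89% of 14194 genes were called and 5.35% were higher. Tyrobp stood at 57.9, 110 and 188 CPM in uterus and at 20.0, 71.0 and 155 CPM in endometrium, and it was higher by 0.81 ± 0.23 (adjusted p = 0.0210) and in 10 of 14 mice, a call lost without mouse 1 (adjusted p = 0.0564). S100a8 and S100a9, partner genes on chromosome 3 (mm9: 90472993 to 90473956 and 90496554 to 90499643) whose products form calprotectin, were higher by 2.23 ± 0.73 (adjusted p = 0.0469) and 2.65 ± 0.79 (adjusted p = 0.0294). Both entered the test only through uterus, the tissue where they are high: 7 uterus and 4 endometrium samples reached 1 CPM of S100a8, and 6 and 0 of S100a9, where 5 in all were required. Such genes had to differ, so their calls carry no weight as a count, and 1 call, Tyrobp, was free of this. The folds also rested on few molecules. S100a8 had 29 counts in 8 of 14 uterus samples, 6 counts in 4 endometrium samples and 2 counts in 2 myometrium samples. S100a9 had 17, 2 and 2 counts, in 6, 1 and 2 samples. Pooled over the samples of a tissue, the S100a8 ratio of uterus to endometrium was 4.01 (exact 95% interval 1.64 to 11.8, counting error only) and the S100a9 ratio was 7.05 (1.67 to 62.9). A handful of mice carried most of the S100a8 counts: KO mouse 11 reached 12.3 CPM, KO mouse 9 reached 12.0 and WT mouse 1 reached 6.58.

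Blocking on the mouse as the replicate, the uterus to endometrium calls were different genes. S100a8 and S100a9 were then 1.88 (adjusted p = 0.125) and 2.40 (adjusted p = 0.0953) and no longer called, Tyrobp was 0.86 (adjusted p = 0.000539), and C1qa and Lyz2 joined it at 0.68 (adjusted p = 0.00233) and 0.56 (adjusted p = 0.0132). S100a8 also lost its call without any 1 of mice 1, 2, 3, 4, 9, 10 and 11 (highest adjusted p = 0.131) and S100a9 without any 1 of mice 1, 9, 10 and 11 (highest adjusted p = 0.122). S100a8 was not called in KO mice, rows A-C or rows D-F alone (adjusted p = 0.148, 0.153 and 0.549) and was not tested in WT mice alone, and S100a9 was not tested in any of these fits.

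Between uterus and myometrium 19 of 36 members were called, 18 of them higher in uterus, against 27.7% of 14243 genes called, 15.7% higher and 12.1% lower. The median log2 difference of the members was 1.01, and that of all genes was 0.02. By lineage, 5 of 6 pan-leukocyte genes rose, 6 of 12 macrophage genes rose and 1 fell, 3 of 5 NK genes rose, as did 2 of 3 neutrophil genes (S100a8 and S100a9, whose entry to the test is described next), 1 of 2 eosinophil genes tested and 1 of 5 T cell genes, and no B cell gene was called. C1qa stood at 166, 291 and 507 CPM in uterus and at 77.6, 114 and 213 CPM in myometrium, higher in 14 of 14 mice and by 1.36 ± 0.17 (adjusted p = 1.57e-07). Cd14 was higher by 2.41 ± 0.28 (adjusted p = 4.24e-08), and its uterus range of 23.1 to 167 CPM overlapped the myometrium range only at the low end.

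Lyz2, the lysozyme of macrophages and neutrophils, was at 62.3, 212 and 296 CPM in uterus and at 70.6, 142 and 222 CPM in myometrium, higher by 0.72 ± 0.19 (adjusted p = 0.00394) in 12 of 14 mice. Its first 100 bases match the paralogue Lyz1 at 98.0% of 51 aligned bases, so reads of the pair may have been shared. C1qc was higher by 0.73 ± 0.22 (adjusted p = 0.00990). Cd3g was higher by 1.50 ± 0.33 (adjusted p = 0.000550), with 208 counts in uterus and 52 in myometrium. Ear2, an eosinophil ribonuclease, was higher by 1.74 ± 0.55 (adjusted p = 0.0143) on 37 counts in 13 uterus samples and 7 counts in 5 myometrium samples. The first 100 bases of Ear2 match those of Ear1 at 97.9% of 94 aligned bases, and Ear1 had no count in any sample. Gzma was higher by 2.02 ± 0.48 (adjusted p = 0.00140) and Nkg7 by 1.77 ± 0.40 (adjusted p = 0.000816), each in 12 of 14 mice. S100a8 was higher by 2.79 ± 0.77 (adjusted p = 0.00568), with a pooled ratio of 9.10 (2.30 to 78.7), in 8 mice and lower in 1, the rest having no count in either tissue. It and S100a9, with 7 and 6 uterus samples and 2 and 2 myometrium samples at 1 CPM, again entered the test only through uterus, which leaves 17 calls that did not.

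Mrc1 was the member called lower in uterus than in myometrium, by -0.85 ± 0.31 (adjusted p = 0.0360), though only 8 of 14 mice had the lower value in uterus. That call was lost without any 1 of mice 4, 5, 6, 7, 8, 12, 13 and 14 (highest adjusted p = 0.0999) and under spike-in scaling (-0.31, adjusted p = 0.493). Gzmb (1.50 ± 0.57, adjusted p = 0.0438) and S100a9 (2.08 ± 0.81, adjusted p = 0.0498) lay next to the threshold and were lost under DESeq2 (adjusted p = 0.0538 and 0.201). S100a9 was lost with the mouse block too (2.03, adjusted p = 0.102), while Cd79b (1.01, adjusted p = 0.114) was then called (adjusted p = 0.0421), as it was under spike-in scaling (1.57, adjusted p = 0.00756). Of the 19 calls, 18 could be fitted in each set of plate rows, all with the same direction, and 13 passed in rows A-C and 5 in rows D-F.

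**Figure D3:**
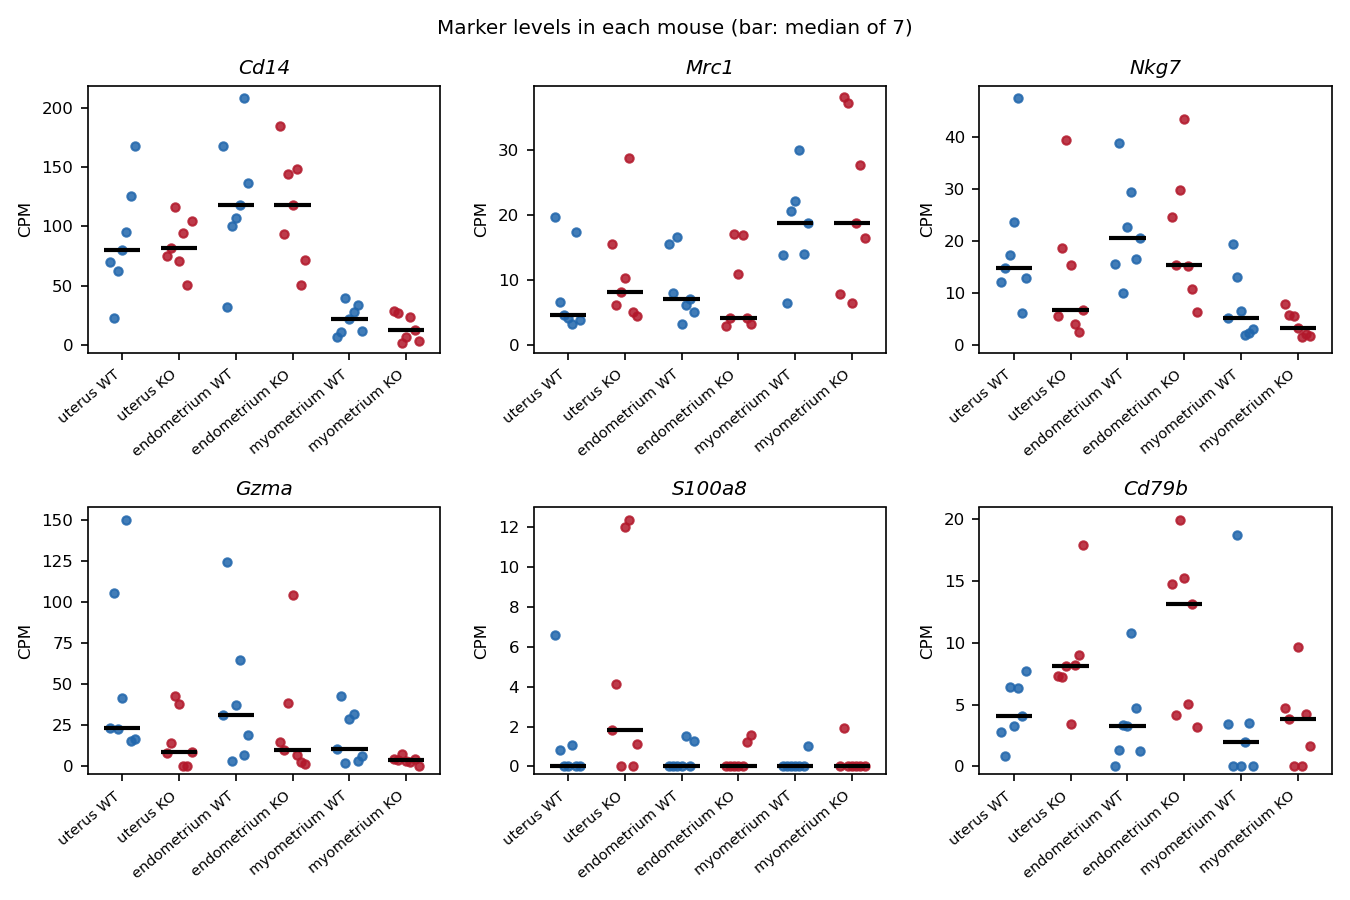
CPM of Cd14, Mrc1, Nkg7, Gzma, S100a8 and Cd79b in the 6 groups of 7 mice, 1 point per mouse (WT blue, KO red), with the median of each group as a bar. Cd14 and Nkg7 are low in both myometrium groups, Mrc1 is high there with medians of 18.7 (WT) and 18.8 CPM (KO), and the WT and KO points of each tissue overlap in all 6 genes.

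The study's main question, what the loss of Plag1 changed, was asked of the leukocyte genes in each tissue. No member was called between KO and WT in uterus, endometrium or myometrium, and neither was any of the other genes, by edgeR's quasi-likelihood test (0 of 12959, 0 of 13004 and 0 of 12991, or 0.0% in each). DESeq2 called 0, 1 and 0 genes, none of them a member. At an unadjusted p below 0.05, 3 of 35 members stood out in uterus, where 5.64% of genes did, 5 of 32 in endometrium, where 5.2% did, and 6 of 33 in myometrium, where 4.22% did. The members' median log2 differences, KO over WT, were -0.04 in uterus, 0.24 in endometrium and 0.08 in myometrium. Scaling to the spike-ins instead of the genes moved the median of all genes to -0.37 in uterus, 0.27 in endometrium and -0.07 in myometrium. The differences given here are relative to the gene scaling.

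Gzma had the smallest p of any member in uterus and in myometrium. In uterus the WT mice stood at 15.4, 23.5 and 150 CPM (lowest, median and highest of 7) and the KO mice at 0, 8.96 and 42.9 CPM. In myometrium the values were 1.88, 10.4 and 43.1 CPM in WT and 0, 3.82 and 7.47 CPM in KO. The groups overlapped in both tissues, with the highest values in WT mice 3 and 8. The log2 difference was -1.74 ± 0.66 in uterus (adjusted p = 0.733), -2.10 ± 0.61 in myometrium (adjusted p = 0.844) and -0.83 ± 0.69 in endometrium. Gzmb and Ncr1 in myometrium and Klrb1c in uterus also had unadjusted p below 0.05, lower in KO. The other NK differences ran from -1.22 for Klrb1c in endometrium to 0.17 for Klrb1c in myometrium and Gzmb in endometrium, the latter pair being higher in KO. Over the 5 NK genes the KO difference had a median of -0.94 (uterus), -0.46 (endometrium) and -1.85 (myometrium), and over the other NK genes tested the medians were -0.52, 0.27 and -0.49. The 5 NK genes summed to a median of 81.4 CPM in WT and 26.9 in KO uterus, 60.5 and 32.1 in endometrium, and 30.0 and 12.9 in myometrium. The ranges overlapped in all 3 tissues, by most in uterus and endometrium and by least in myometrium (14.0 to 77.6 CPM in WT and 3.29 to 14.9 CPM in KO). Over the mice of both genotypes Gzma had a mean of 34.9 CPM in uterus, 33.3 in endometrium and 10.9 in myometrium. The sum had means of 67.8, 76.3 and 24.4 CPM, so it repeats Gzma in good part and does not show the 5 genes falling together. Within plate rows A-C the Gzma difference was -1.57 in uterus and -2.06 in myometrium, and within rows D-F it was -0.84 in myometrium and could not be fitted in uterus. With plate rows as a covariate the uterus value was -1.21, and the part of the rows in the result was not tested further.

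Cd79b went the opposite way. In endometrium the WT mice stood at 0, 3.25 and 10.8 CPM and the KO mice at 3.18, 13.2 and 20.0 CPM. In uterus they stood at 0.825, 4.11 and 7.72 CPM and at 3.43, 8.12 and 17.9 CPM. The KO values were shifted up but overlapped those of WT in both tissues. The difference was 1.60 ± 0.55 in endometrium (adjusted p = 0.855) and 1.10 ± 0.44 in uterus (adjusted p = 0.789), with -0.34 ± 0.83 in myometrium. It kept its sign within rows A-C (1.78 in endometrium, 1.09 in uterus) and rows D-F (1.56 and 0.83). Jchain in endometrium (1.29 ± 0.61) did not keep its sign, with -0.23 in rows A-C and 1.56 in rows D-F.

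Summing the 3 tissues of a mouse gave 1 value per animal, an alternative added after the data had been seen. Again 0 of 33 members were called, among 0.0% of 13100 genes, and at an unadjusted p below 0.05 there were 2 members and 5.81% of genes. These 2 were Cd79b (1.12 ± 0.37, adjusted p = 0.785) and Klrb1c (-1.21 ± 0.57, adjusted p = 0.842), with Cd79a (1.30 ± 0.62) and Gzma (-1.40 ± 0.67) just beyond it in opposite directions. An interaction test of layer and genotype called none of 34 members, with 0.0% of 14314 genes called by edgeR and 0 by DESeq2. At an unadjusted p below 0.05 it picked 4.6% of genes and 1 member, C1qb (0.79 ± 0.39, adjusted p = 0.993), for which the layers differed more in KO.

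**Figure D4:**
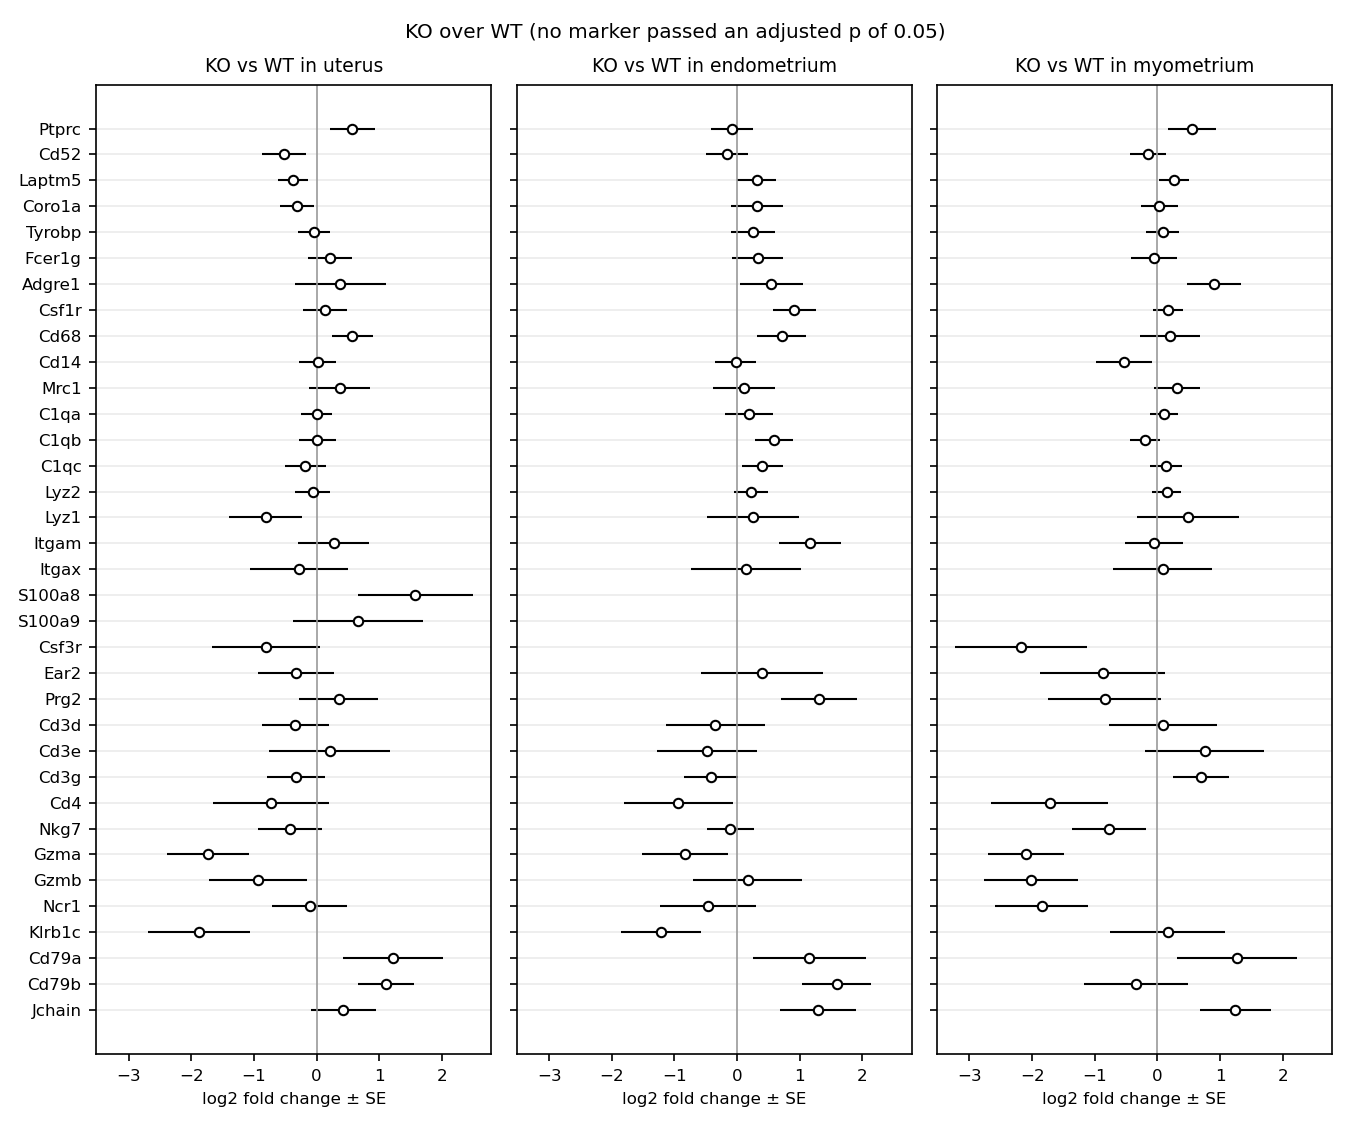
Log2 differences, KO over WT, with bars of ± 1 SE, of the members tested in uterus, endometrium and myometrium, by lineage. No point passed the adjusted threshold, and the NK gene Gzma lies to the left in all 3 tissues at -1.74, -0.83 and -2.10.

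Pairs of members of 1 lineage were compared across the 14 mice within a tissue, on log2(CPM + 1), over 23 relations, and 10 further relations were left out because a gene of the pair was at 0 in most samples. The C1q chains, which make 1 product, passed in 5 of 9 relations by Pearson's r. In endometrium C1qa and C1qc had Pearson r = 0.82 and Spearman rho = 0.76 (permutation test, adjusted p = 0.00172 and 0.0122), and r was 0.71 without the 2 samples farthest from the median of C1qa. In uterus C1qa and C1qb had r = 0.83 and rho = 0.79 (permutation test, adjusted p = 0.00307 and 0.0121), 0.80 without the 2 farthest. Within plate rows the uterus relation held, at 0.91 in rows A-C and 0.70 in rows D-F. Tyrobp and Fcer1g, adaptors used by the same cells, had r = 0.87 and rho = 0.89 in uterus (permutation test, adjusted p = 0.00161 and 0.000920), 0.88 without the 2 farthest, and 0.85 and 0.92 within the sets of rows. This pair did not pass in endometrium (r = 0.52) or myometrium (r = 0.48, permutation test, adjusted p = 0.132 and 0.170). In all, 6 of the 23 relations passed at Pearson's adjusted p below 0.05, the others being C1qb with C1qc in uterus and the 2 remaining C1q pairs in endometrium. C1qa with C1qc in uterus did not pass (r = 0.60, permutation test, adjusted p = 0.0708), nor did the 3 C1q pairs in myometrium (r = 0.58, 0.54 and 0.29), of which C1qa with C1qb passed by Spearman's rho (0.67, permutation test, adjusted p = 0.0363). Adgre1 and Csf1r, both used to mark macrophages, had r of -0.16, -0.10 and -0.26 in uterus, endometrium and myometrium, and Ptprc and Laptm5 had r of -0.09, -0.03 and 0.04.

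The same gene was also compared between tissues of 1 mouse, a family of 84 relations over 28 genes added after the levels had been seen. The highest r values joined uterus and endometrium. Jchain had r = 0.89 and rho = 0.86 (permutation test, adjusted p = 0.00126 and 0.00504), 0.87 without the 2 farthest mice, and 0.84 and 0.90 within rows A-C and D-F. WT mouse 10 had 9.26 CPM of Jchain in uterus and 3.54 in endometrium, and KO mouse 13 had 100.4 and 209 CPM. Cd52 had r = 0.87 and rho = 0.94 (permutation test, adjusted p = 0.00126 and 0.000840), 0.90 without the 2 farthest, and 0.94 and 0.78 within the sets of rows. Gzma had r = 0.73 and rho = 0.83 (permutation test, adjusted p = 0.0432 and 0.0118), 0.77 without the 2 farthest and 0.75 and 0.62 within rows, from 0 and 2.47 CPM in KO mouse 13 to 106 and 125 CPM in WT mouse 3.

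C1qa also passed between uterus and endometrium (r = 0.73, rho = 0.78, permutation test, adjusted p = 0.0432 and 0.0304), at 0.73 without the 2 farthest and 0.74 and 0.95 within rows. By Pearson's r, 1 relation with the myometrium passed, Gzma in endometrium and myometrium (r = 0.77, rho = 0.74, permutation test, adjusted p = 0.0286 and 0.0434), which fell to 0.60 without the 2 farthest mice, with 0.92 in rows A-C and 0.46 in rows D-F. By Spearman's rho alone 3 more passed: C1qa and Jchain in endometrium and myometrium (rho = 0.75 and 0.73, permutation test, adjusted p = 0.0351 and 0.0472), and Adgre1 in uterus and myometrium, which was negative (rho = -0.76, r = -0.66, permutation test, adjusted p = 0.0351 and 0.0762). Within rows A-C and D-F these had r of 0.58 and 0.80 for C1qa, -0.16 and 0.76 for Jchain, which changed sign, and -0.38 and -0.75 for Adgre1. Over the 28 genes the median r was 0.48 for uterus with endometrium (27 above 0), 0.31 for uterus with myometrium and 0.19 for endometrium with myometrium (20 above 0 in each). Each r rests on samples that share an animal and a place in the plate rows.

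**Figure D5:**
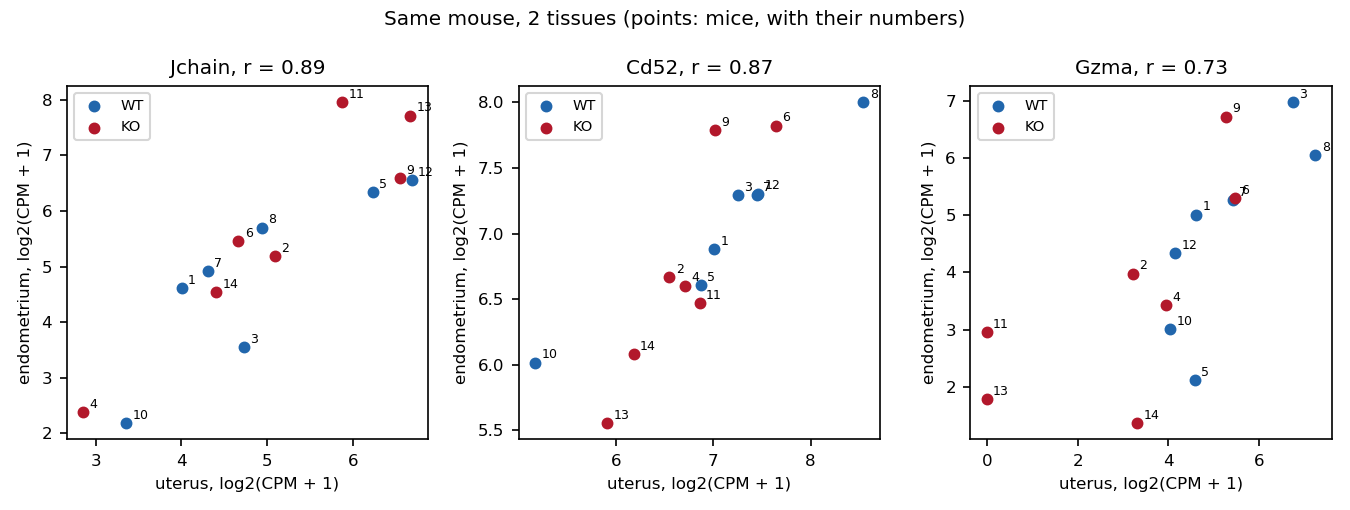
CPM in uterus (x axis) against endometrium (y axis) of the same mouse, on log2(CPM + 1) axes, for Jchain, Cd52 and Gzma, 1 point per mouse, WT in blue and KO in red. The points rise together in each panel, with Pearson r of 0.89, 0.87 and 0.73 over 14 mice.

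A wider list of leukocyte genes that were not members was read for comparison: 87 genes, of which 83 were in the table. Between endometrium and myometrium 15 of 64 tested were higher and 5 lower, 31.2% in all, near the 28.1% of all genes. Which tissue let each gene of this list into a comparison of tissues was not examined. The counts given for the list may include genes that entered only through the tissue where they are high. Of the NK genes 4 of 7 were higher in endometrium, among them Il2rb, a chain of the interleukin 2 and 15 receptors (1.90 ± 0.45, adjusted p = 0.00105), and Prf1, perforin (1.92 ± 0.69, adjusted p = 0.0313). All 7 were tested within endometrium alone but 5 within myometrium alone. Some of the 4 may have entered only through endometrium, so they are not separate support for the NK members. Of the macrophage genes 2 of 15 were higher, one being Ctss, the cathepsin of antigen-presenting cells (1.38 ± 0.26, adjusted p = 5.92e-05), and 2 were lower. Those 2, named after their values were seen, were Lyve1 and Folr2, which with Mrc1 mark resident macrophages, Lyve1 marking lymphatic vessels too. The remaining 11 were not called, and the median log2 difference of the 15 was -0.02, so the list as a whole did not lean toward the muscle. Cd163 and Mertk of the same list were not called lower. Lyve1 stood at 0, 3.11 and 28.2 CPM in endometrium and at 24.2, 39.3 and 54.1 CPM in myometrium (-2.59 ± 0.38, adjusted p = 1.28e-06), with ranges that overlapped only at their ends. Folr2 was lower by -0.97 ± 0.33 (adjusted p = 0.0230). Of T cell genes 2 of 7 were higher, including the kinase Lck (1.42 ± 0.48, adjusted p = 0.0237), and of B cell genes 1 of 4, the adaptor Blnk (1.23 ± 0.27, adjusted p = 0.000511).

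Of 7 other neutrophil genes tested between uterus and endometrium, 2 were higher in uterus, 1 (Ly6g, named after its values were seen) was lower at -2.49 ± 0.77 (adjusted p = 0.0366), and the median was -0.33. Of these lists, 5 genes were tested within uterus alone and 4 within endometrium alone. Whether Ly6g entered the test only through endometrium, where it is higher, was not examined, so no weight is put on its call. The summed level of the other neutrophil genes had a median of 573 CPM in uterus, 888 CPM in endometrium and 122 CPM in myometrium. This sum includes Ltf, which uterine epithelium also makes, so it is not a level of neutrophils alone. The neutrophil members summed to medians of 3.06, 1.14 and 1.45 CPM in the same order. Of the other neutrophil genes, Retnlg, a resistin-like protein of neutrophils, was higher in the whole horn than in either layer. It stood at 0, 21.1 and 117 CPM in uterus, at 0, 3.24 and 37.0 CPM in endometrium and at 0, 3.21 and 19.9 CPM in myometrium. The difference was 2.71 ± 0.61 over endometrium (adjusted p = 0.00315) and 2.71 ± 0.57 over myometrium (adjusted p = 0.000378), with all 3 ranges starting at 0. Ltf, lactoferrin, was higher in endometrium than in myometrium (2.73 ± 0.52, adjusted p = 7.36e-05), as was Alox15 of the eosinophil list (3.49 ± 0.64, adjusted p = 4.33e-05), and both are also made by uterine epithelium. Over the whole list, 6 of 65 genes were higher and 3 lower between uterus and endometrium, 13.8% where 8.89% of all genes were called, and 18 of 64 were higher and 2 lower between uterus and myometrium, 31.2% where 27.7% were. None was called between KO and WT in any tissue. Elane, Foxp3 and Pax5 were among those with no count in any sample.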

How the data were processed

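STRT libraries were made from 10 ng of total RNA of each of 42 mouse and tissue samples in 1 multiplexed pool, 45 libraries in all. Per the study's methods, reads were aligned with TopHat to mm9, reads sharing an identifier were joined, and molecules were counted over UCSC gene models and ERCC spike-ins with Homer; the labels' processing notes also name HTSeq, and strand and multimapping settings were not given in the sources used here. The authors deposited these values as raw counts per gene, 24422 genes and 92 spike-ins. All 45 columns were used. The 3 endometrium libraries of KO mouse 13 and the 2 myometrium libraries of WT mouse 12 were summed. Gene counts per library were 256298 to 1222627. Intervals and floors (3 counts) cover counting error only.

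Counts were tested in edgeR 4.0.16 (R 4.3.3) with TMM factors and the quasi-likelihood test, on genes that reached 1 CPM in 5 or more samples, with Benjamini-Hochberg adjustment over all genes tested and a threshold of 0.05; SE was the log2 difference divided by the root of F. Tissue comparisons held genotype as a term and had no mouse block, since the study's methods name none. Mouse numbers in the labels mark the same animal, and same-numbered samples deviated together weakly (median r over 14822 genes 0.145 for uterus and endometrium, 0.0991 for endometrium and myometrium, 0.0654 for uterus and myometrium). Members followed the mouse more closely: across mice, 28 of them had a median r of 0.48 between uterus and endometrium. There the mouse block changed which members were called, so the main fits leave out a pairing that matters for them. Alternatives were DESeq2 1.42.0, RLE factors, spike-in scaling, other filters, the deepest repeat library, plate rows, a mouse block, single genotypes and left-out mice. Correlations were tested with 100000 permutations. The fitting code was tested on simulated data. Positions are mm9, from Gencode, where Siglecf had no entry and Adgre1 and Jchain were found under the older symbols Emr1 and Igj. Of the members, 28 had a RefSeq promoter window.

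The members and all gene lists were chosen with earlier results of these data known. Genes given in full were the 3 members per lineage with the highest mean CPM, every member called in a comparison, and the member with the smallest p in each KO and WT comparison and in the interaction; other members are named for counts of 5 or fewer or as contrasts, after their values were seen. For the other leukocyte list, up to 2 examples per lineage with the highest mean CPM were allowed.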

Additional observations from a re-analysis of the deposited data

Results flagged for a closer look

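Of 216 groups of 7 mice examined, 16 held 1 mouse far from the other 6, or 7.41%. The groups were each member given in full and each lineage sum, in each tissue and genotype, and the remaining members were not examined. The cut used gives about 5% by chance, a rate that need not hold for genes at 0 in most mice. No gene moved in opposite directions in every sample of 2 groups. Several were 1 or 2 molecules against none: S100a8 stood at 1.04 CPM in the myometrium of WT mouse 12 and at 1.91 CPM in that of KO mouse 4, and S100a9 at 0.823 CPM in the endometrium of KO mouse 13, 2.00 CPM in the myometrium of WT mouse 8 and 1.45 CPM in that of KO mouse 11, with 0 in the other mice of each group. Siglecf was at 4.43 CPM in the myometrium of WT mouse 7 and at 0 in the others. S100a8 reached 6.58 CPM in the uterus of WT mouse 1, against 0 to 1.06 CPM.

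KO mouse 9 stood apart in myometrium in 2 lymphocyte genes, with Cd52 at 123 CPM against 29.9 to 53.5 CPM and Cd79a at 16.1 CPM against 0 to 1.91 CPM. KO mouse 14 was low in myometrium, with Csf1r at 26.3 CPM against 34.7 to 41.9 CPM, Gzma at 0 against 2.89 to 7.47 CPM, and the NK sum at 3.29 CPM against 10.1 to 14.9 CPM. WT mouse 8 had a pan-leukocyte sum of 840 CPM in uterus against 328 to 473 CPM, and a neutrophil sum of 6.19 CPM in endometrium against 0 to 1.34 CPM. Cd14 was at 32.2 CPM in the endometrium of WT mouse 3 against 100 to 208 CPM, and Laptm5 at 18.0 CPM in the uterus of KO mouse 13 against 48.7 to 76.8 CPM.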

How the results depend on the processing

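No KO and WT comparison and no interaction called a member under any alternative run (0 in each). Between endometrium and myometrium the 15 calls became 7 in WT mice alone, 8 in plate rows A-C and 6 in rows D-F, and 12 to 18 when 1 mouse was left out; these fits hold fewer mice. The other alternatives gave 13 to 19. Between uterus and endometrium the 3 calls became 1 under DESeq2, which gave S100a8 and S100a9 no adjusted p, 1 at 10 CPM, where they were not tested, 0 in WT mice, KO mice, rows A-C and rows D-F alone, and 0 to 4 without 1 mouse (0 without mouse 1; 1 without mouse 9, 10 or 11). Between uterus and myometrium the 19 calls became 11 in WT mice, 12 in KO mice and 5 in rows D-F, and 16 to 20 without 1 mouse or 1 sample. With the deepest repeat library alone, S100a8 over endometrium (adjusted p = 0.0618) and S100a9 over myometrium (0.0561) were lost. The mouse block changed no count of calls (15, 3 and 19) and, beside the exchanges of genes given in the report, no other call. Of the refits of single called genes, 413 stayed past the threshold, 81 fell below it and none reversed; the 45 refits of genes not called stayed so. Spike-in scaling moved the median of all genes to 0.39 in endometrium over myometrium, 0.18 in uterus over endometrium and 0.58 in uterus over myometrium, where it called 19, 4 and 24 members. Gzmb in uterus over myometrium was lost without any 1 of mice 5, 6, 8, 9, 12 and 14 (highest adjusted p = 0.121), and S100a9 there in 11 of 14 leave-outs (highest 0.149). With CPM + 10, the Cd3e and Cd3g correlation in uterus went from -0.11 to 0.024, and that of Cd79a and Cd79b from 0.33 to 0.49; the cause was not tested. Depth limits the neutrophil, eosinophil, T cell and B cell genes most.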

Other observations

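Mast cell genes, which were not members, lay toward the muscle. The summed level of Cpa3, Kit, Ms4a2, Cma1 and Tpsb2 was 5.15, 12.2 and 144 CPM (lowest, median and highest) in endometrium, 53.3, 119 and 230 CPM in myometrium and 98.6, 140 and 290 CPM in uterus. The proteases Cpa3, Cma1 and Tpsb2 were lower in endometrium than in myometrium by 2.69, 2.22 and 2.01 on the log2 scale and Ms4a2, a chain of the IgE receptor, by 2.00, while Kit, which is not particular to mast cells, was higher by 1.21. Ms4a2 reached 1 CPM in too few endometrium samples to be tested within endometrium. It thus entered this test only through myometrium, the tissue where it is high, and its call carries no weight. The dendritic cell gene Siglech was lower in endometrium as well (-2.05 ± 0.57, adjusted p = 0.00545), and Cd209a was not called (-0.63). Whether Siglech entered the test only through myometrium was not examined.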
